A study of Mus musculus with 8 samples.

Results

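The genes described here belong to the unfolded protein response of the endoplasmic reticulum (ER), and their steady-state mRNA levels were compared between hearts of Ssbp1 knockout mice and control hearts. The genes are Ern1 and Atf6, which encode stress sensors, Xbp1, which encodes a transcription factor of the response, and Hspa5, Hsp90b1, Calr, Pdia4, Dnajb9, Sdf2l1 and Herpud1, which encode chaperones and quality control factors. They were taken by gene symbol as sensors and targets of the ATF6 and XBP1 branches, to set ER stress beside the stress response that follows mitochondrial dysfunction. All 10 were found among the 55383 rows of the deposited table, and all 10 passed the filter on low values together with 14522 genes in all (no less than 10 normalized counts in 2 or more of the 4 libraries compared).

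Whole-heart total RNA from mice of about 5 weeks of age was sequenced in TruSeq libraries. The knockout group held 2 hearts with the genotype Ssbp1-/- in the labels. In the study's knockout mice (L/L,cre), exon 3 of Ssbp1 is flanked by loxP sites, and Cre recombinase is driven by the muscle creatine kinase promoter (Ckmm-cre) in heart and skeletal muscle. The control group held 2 hearts labelled Ssbp1+/+, and the study's controls (L/L) carry the loxP-flanked gene without Cre. Both groups share the inbred C57BL/6N nuclear background, and the labels describe the cross with Ckmm-cre mice for all samples without stating which mouse carried Cre. Since Ckmm-cre acts in muscle cells, the other cells of a heart keep Ssbp1, which encodes the mitochondrial single-stranded DNA binding protein. For 2 further mice the title and the genotype field contradict each other, and they were placed in neither group. Nothing states whether the mice came from separate litters, so p-values measure the spread between these samples only.

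Reads are counts assigned to genes, recovered from the deposited gene-level values, and their sums are not the number of reads sequenced. They summed to 25558246 and 25682093 in the knockout libraries, of which 10734547 and 11259234 fell on nuclear genes. In the control libraries they summed to 24067849 and 19716305, of which 8981637 and 6568812 fell on nuclear genes. Mitochondrial transcripts took 56.2 to 58.0% of the reads of knockout libraries and 62.7 to 66.7% of those of control libraries. Values are normalized counts, that is, reads per gene divided by 1 size factor per library. Ssbp1, the targeted gene, had 170 and 163 normalized counts in knockout hearts and 177 and 216 in control hearts (log2 difference -0.23, SE 0.16, limma adjusted p = 0.890). Both knockout hearts lay below both control hearts, as in 17.5% of all genes, but the gene did not pass the test. Reads over the deleted exon cannot be told apart in the gene-level value. The 8 cardiomyocyte markers summed to 606134 to 630441 normalized counts in knockout hearts and 598925 to 634238 in control hearts, and none of them passed the test. In whole tissue, fewer cells of a type and less RNA per cell cannot be told apart.

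The unfolded protein response adjusts the folding capacity of the ER to the load of unfolded proteins in its lumen. 3 sensors in the ER membrane start it: the kinase and endoribonuclease IRE1 (encoded by Ern1), which splices the mRNA of Xbp1 into the form that is translated into the active factor, ATF6, which is cut in the Golgi to free a transcription factor, and the kinase PERK (Eif2ak3), which phosphorylates eIF2 alpha and so brings in ATF4. PERK thereby shares its output with the integrated stress response, which kinases outside the ER can start as well. Chaperones such as BiP (Hspa5) are targets of the ATF6 branch. In heart muscle the ER is continuous with the sarcoplasmic reticulum, the calcium store of contraction, and ATF6 is known there as an inducer of protective chaperones.

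The response acts through short promoter elements, so the promoters of the 9 genes that matched the RefSeq promoter table by symbol (GRCm38.p6, 250 bases before to 50 bases after the annotated start, none for Atf6) were searched on both strands. The ER stress response element, ERSE, was searched as CCAAT and CCACG separated by any 9 bases. ATF6 binds it together with the CCAAT factor NF-Y. It was found in 0.119% of the 32851 promoters and in 3 of the 9 genes, namely Hspa5, Calr and Hsp90b1, the last with 2 matches. ERSE-II was searched as ATTGG and CCACG separated by any 1 base, and occurred in 0.0365% of promoters, among them that of Herpud1. The unfolded protein response element, UPRE, searched as TGACGTGG, occurred in 0.676% of promoters and in none of the 9, and the C/EBP-ATF response element to which ATF4 binds, CARE, searched as TGATGNAAN, occurred in 3.95% of promoters and in that of Herpud1. ERSE, ERSE-II and the reverse complement of UPRE share the letters CCACG. The matches are printed because they mark which of the genes carry the element of the ER response, which carry that of ATF4, and on which strand, with the fixed letters of each element in capitals and the sequence read along the gene.
Hspa5 ERSE (chr2:34772020-34772048, gene on the + strand): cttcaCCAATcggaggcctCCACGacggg
Calr ERSE, reversed (chr8:84847070-84847098, gene on the - strand): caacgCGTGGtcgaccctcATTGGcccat
Hsp90b1 ERSE (chr10:86705633-86705661, gene on the - strand): caagcCCAATcgcaaggagCCACGcttcg
Hsp90b1 ERSE, reversed (chr10:86705528-86705556, gene on the - strand): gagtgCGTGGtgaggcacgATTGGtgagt
Herpud1 ERSE-II (chr8:94386372-94386392, gene on the + strand): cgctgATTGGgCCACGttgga
Herpud1 CARE, reversed (chr8:94386311-94386329, gene on the + strand): ggcgggTTgCATCAgcccg

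The match in Hspa5 lay 65 to 47 bases before the start, and the matches in Hsp90b1 lay 212 to 194 and 107 to 89 bases before it. In Calr the match lay 162 to 144 bases before the start. Herpud1 was the only gene of the 9 with elements of both kinds, its CARE 113 to 105 and its ERSE-II 52 to 42 bases before the start. A match describes the letters of the window and is not a measurement of binding. Only exact matches to the fixed letters were searched, so variant forms of the elements are not marked. The 250 bases before the start of Hspa5, a gene with an exact match to ERSE only, and of Herpud1, the gene with matches of both kinds, are given to show them in place.
Hspa5 (chr2:34771840-34772089, + strand): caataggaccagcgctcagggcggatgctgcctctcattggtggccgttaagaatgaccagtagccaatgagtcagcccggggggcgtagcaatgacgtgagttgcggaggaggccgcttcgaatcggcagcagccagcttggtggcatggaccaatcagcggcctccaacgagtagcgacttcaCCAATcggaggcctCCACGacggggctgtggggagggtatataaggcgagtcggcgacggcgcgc
Herpud1 (chr8:94386179-94386428, + strand): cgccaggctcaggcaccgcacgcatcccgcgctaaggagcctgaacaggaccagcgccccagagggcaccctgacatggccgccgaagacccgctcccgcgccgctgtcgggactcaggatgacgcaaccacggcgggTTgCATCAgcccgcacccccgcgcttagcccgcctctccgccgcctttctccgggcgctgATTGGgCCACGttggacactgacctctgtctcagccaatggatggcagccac

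**Figure D1:**
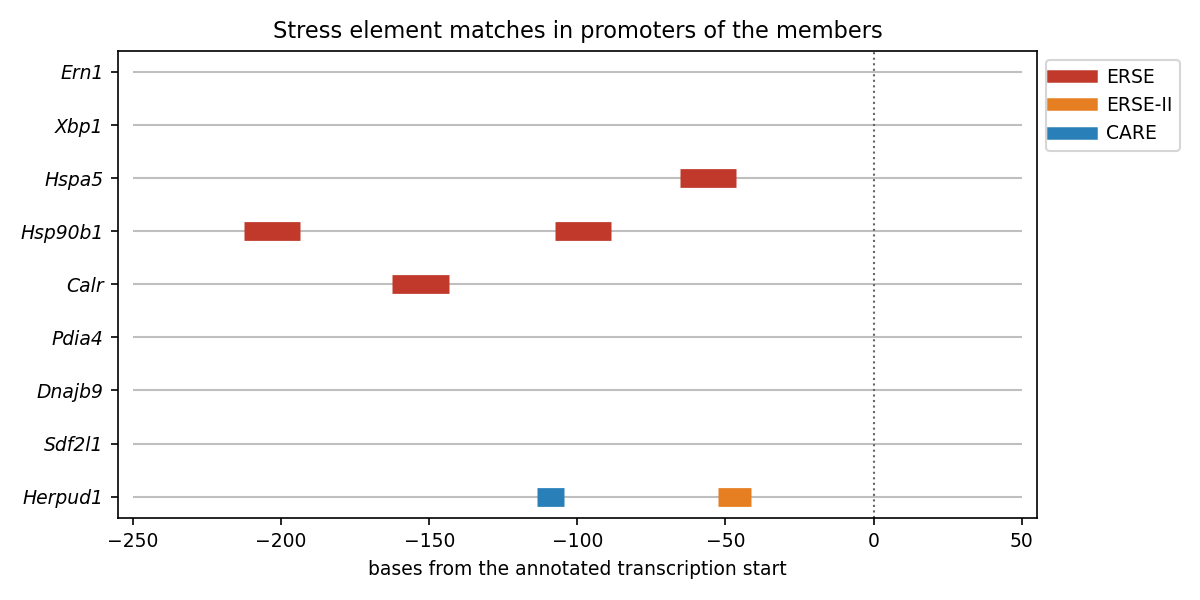
Matches to ERSE (red), ERSE-II (orange) and CARE (blue) in the promoters of 9 ER unfolded protein response genes, 1 line per gene, against bases from the annotated transcription start (x axis, negative before the start). Hspa5, Hsp90b1 and Calr hold ERSE matches and Herpud1 holds an ERSE-II and a CARE match, while the other 5 lines carry no match in this window.

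None of the 10 genes passed an adjusted p of 0.05 in limma, with Benjamini-Hochberg adjustment over all genes tested, against 17 of 14522 genes (0.117%, of which 0.0757% higher and 0.0413% lower in knockout hearts). edgeR on the recovered reads called 0 of the 10 (0.131% of all genes), and DESeq2 called 1, Atf6, as higher in knockout hearts (0.427% of all genes, 0.296% as higher). At an unadjusted p under 0.05, limma set apart 5 of the 10 genes against 6.11% of all genes. Ern1 and Atf6 were the higher ones (3.08% of all genes), and Hspa5, Calr and Pdia4 the lower ones (3.02% of all genes). The knockout and control values did not overlap in 7 of the 10, with 4 higher and 3 lower in knockout hearts, against 35.6% of all genes (18.1% higher and 17.5% lower). The log2 differences were positive for 5 genes and negative for 5, and their median was -0.019, beside 0.0024 over all genes tested. The median was -0.10 without control 1, but 0.10 without control 2 and 0.012 without knockout 2, and the sign turned for Dnajb9 without control 1 and for Xbp1 without knockout 2. The genes thus did not share a direction: sensor mRNAs had the highest positive differences and several luminal chaperones had negative ones.

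**Figure D2:**
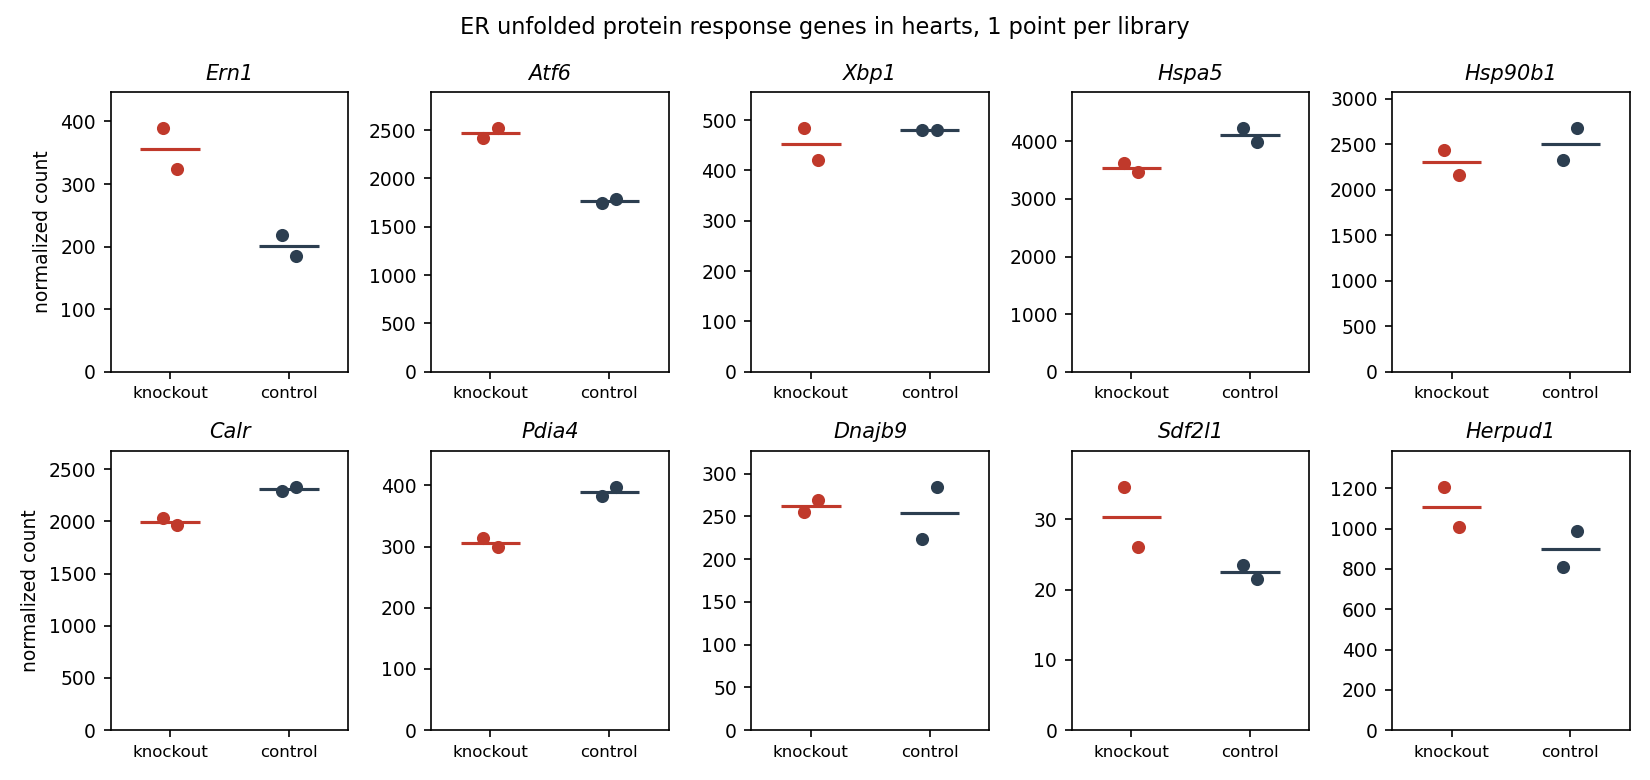
Normalized counts (y axis, starting at 0) of the 10 ER unfolded protein response genes, 1 point per library, with knockout hearts in red on the left, control hearts in dark blue on the right, and horizontal lines for the mean of 2 libraries. Ern1 and Atf6 stand higher in both knockout hearts, Hspa5, Calr and Pdia4 stand lower, and Xbp1, Hsp90b1 and Dnajb9 overlap between the groups.

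Ern1 (chr11:106394650-106487852, - strand, GRCm38) encodes IRE1, the sensor that splices Xbp1 mRNA. It had 389 and 324 normalized counts in knockout hearts, against 218 and 185 in control hearts. Both knockout hearts lay above both control hearts, and the means were 356 ± 46.1 and 201 ± 23.6 (SD, n = 2 each), a ratio of 1.77. The log2 difference of 0.82 (SE 0.16) had a 95% interval of 0.43 to 1.21, or 1.35- to 2.31-fold. It did not pass the adjustment over all genes in limma (adjusted p = 0.444), edgeR (0.405) or DESeq2 (0.0986), and by its unadjusted p of 0.0020 it ranked 67th among all genes tested. Relative to the length of its exons Ern1 was the second lowest of the 10 genes, at 43.6 normalized counts per kb of exon in knockout hearts and 24.6 in control hearts.

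Atf6 (chr1:170704674-170867771, - strand) encodes the sensor that is freed by cleavage in the Golgi. It had 2417 and 2518 normalized counts in knockout hearts and 1744 and 1790 in control hearts. Both knockout hearts lay above both control hearts, with means of 2467 ± 71.2 and 1767 ± 33.1 (SD, n = 2 each) and a ratio of 1.40. The log2 difference was 0.48 (SE 0.084, 95% interval 0.28 to 0.68, or 1.21- to 1.61-fold). limma gave an adjusted p of 0.318 and edgeR 0.324, whereas DESeq2 on the same recovered reads gave 0.0071, and over all alternatives the adjusted p ranged between 0.0071 and 0.9999. The related factor Atf6b showed a log2 difference of 0.051 (limma adjusted p = 0.983, named after its values were seen), and the proteases that cut ATF6 showed 0.12 (Mbtps1, site-1 protease, adjusted p = 0.901) and -0.21 (Mbtps2, site-2 protease, adjusted p = 0.909). Mbtps1 had 673 and 702 normalized counts in knockout hearts and 647 and 616 in control hearts. Mbtps2 had 147 and 163 against 156 and 206. Both knockout hearts lay above both control hearts for Mbtps1 (18.1% of all genes), the groups overlapped for Mbtps2, and neither gene passed the test.

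Xbp1 (chr11:5520659-5525893, + strand), the substrate of IRE1, had 484 and 421 normalized counts in knockout hearts and 481 and 480 in control hearts. The groups overlapped, with a log2 difference of -0.09 (SE 0.12, 95% interval -0.39 to 0.21, limma adjusted p = 0.945). The gene-level value sums the spliced and the unspliced mRNA, so it does not report on IRE1 activity. Eif2ak3, the gene for PERK and named here after its values were seen, had 126 and 142 normalized counts in knockout hearts and 123 and 197 in control hearts. Its log2 difference was -0.22 (adjusted p = 0.933), and the groups overlapped. The ER-bound factor Creb3l1, known for roles in collagen secretion, had 23.9 and 34.4 normalized counts in knockout hearts and 36.2 and 44.5 in control hearts (log2 difference -0.47, adjusted p = 0.890). Of the 13 sensors and processing factors tested, limma and edgeR called 0 and DESeq2 called Atf6. Ern1 and Atf6 were the 2 at an unadjusted p under 0.05 in limma (15.4% of the list), against 6.11% of all genes. The 10 of these genes other than Ern1, Atf6 and Xbp1 had a median log2 difference of -0.051, with 5 positive and 5 negative.

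Hspa5 (chr2:34771970-34777547, + strand) encodes BiP, the Hsp70 chaperone of the ER lumen that holds the sensors inactive. It had 3619 and 3469 normalized counts in knockout hearts, against 4224 and 3992 in control hearts. Both knockout hearts lay below both controls, and the means were 3544 ± 106 and 4108 ± 164 (SD, n = 2 each). The log2 difference was -0.21 (SE 0.082), with a 95% interval of -0.41 to -0.014, or 0.752- to 0.990-fold. It did not pass the test (adjusted p = 0.798 in limma and 0.9999 in DESeq2). Hspa5 had the highest level per exon length of the 10 genes, at 838 normalized counts per kb in knockout hearts and 971 in control hearts. The interval is not adjusted for the number of genes, and the unadjusted p was 0.0394 in limma and 0.0586 in edgeR.

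Calr (chr8:84841850-84846934, - strand) encodes calreticulin, a chaperone of glycoproteins that also binds calcium. Its normalized counts were 2032 and 1965 in knockout hearts and 2293 and 2331 in control hearts. The groups did not overlap (log2 difference -0.21, SE 0.082, 95% interval -0.41 to -0.0097, limma adjusted p = 0.806). Pdia4 (chr6:47796141-47813430, - strand), a disulfide isomerase of the ER, had 314 and 299 normalized counts in knockout hearts and 382 and 397 in control hearts. It had the lowest log2 difference of the 10 genes, -0.35 (SE 0.12, 95% interval -0.63 to -0.057, or 0.644- to 0.961-fold), and it did not pass the test either (adjusted p = 0.773). Hsp90b1 (chr10:86690209-86705509, - strand) encodes GRP94, the Hsp90 chaperone of the ER. It had 2440 and 2161 normalized counts in knockout hearts and 2331 and 2674 in control hearts, which overlap (log2 difference -0.12, SE 0.11, 95% interval -0.39 to 0.15, adjusted p = 0.910).

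Dnajb9 (chr12:44205559-44210326, - strand) encodes ERdj4, a co-chaperone of BiP and a known target of spliced XBP1. It had 255 and 269 normalized counts in knockout hearts, between the 224 and 284 of the control hearts. The log2 difference was 0.05 (SE 0.16, 95% interval -0.34 to 0.44, limma adjusted p = 0.975). Sdf2l1 (chr16:17130138-17132383, - strand), which encodes a luminal protein that works with BiP, was the least abundant of the 10, at 34.6 and 26.0 normalized counts in knockout hearts and 23.5 and 21.6 in control hearts. These values rest on 42 and 34 reads in knockout hearts and on 24 and 16 reads in control hearts. The log2 difference of 0.40 (SE 0.35) had a 95% interval of -0.45 to 1.25 (adjusted p = 0.907), which includes changes in both directions.

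Herpud1 (chr8:94386438-94395377, + strand) encodes an ER membrane protein that organises the degradation of misfolded proteins, and it is the gene with both an ERSE-II and a CARE match in its promoter. It had 1206 and 1010 normalized counts in knockout hearts, against 810 and 989 in control hearts. Both knockout hearts lay above both controls, but the lower knockout heart was close to the higher control heart. The means were 1108 ± 139 and 900 ± 126 (SD, n = 2 each), and the log2 difference of 0.30 (SE 0.14, 95% interval -0.044 to 0.65) did not pass the test (limma adjusted p = 0.815). Per exon length the 10 genes spanned a wide range. Below Hspa5 stood Calr with 694 normalized counts per kb in knockout hearts and 803 in control hearts, Hsp90b1 with 571 and 621, and Herpud1 with 475 and 386. Atf6 had 267 in knockout hearts and 191 in control hearts, and Xbp1 had 139 and 148. Pdia4 had 128 against 162, and Dnajb9 103 against 99.7. Sdf2l1 was lowest, at 27.4 in knockout hearts and 20.3 in control hearts. Xbp1 stood above Pdia4 in knockout hearts, and Pdia4 above Xbp1 in control hearts.

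**Figure D3:**
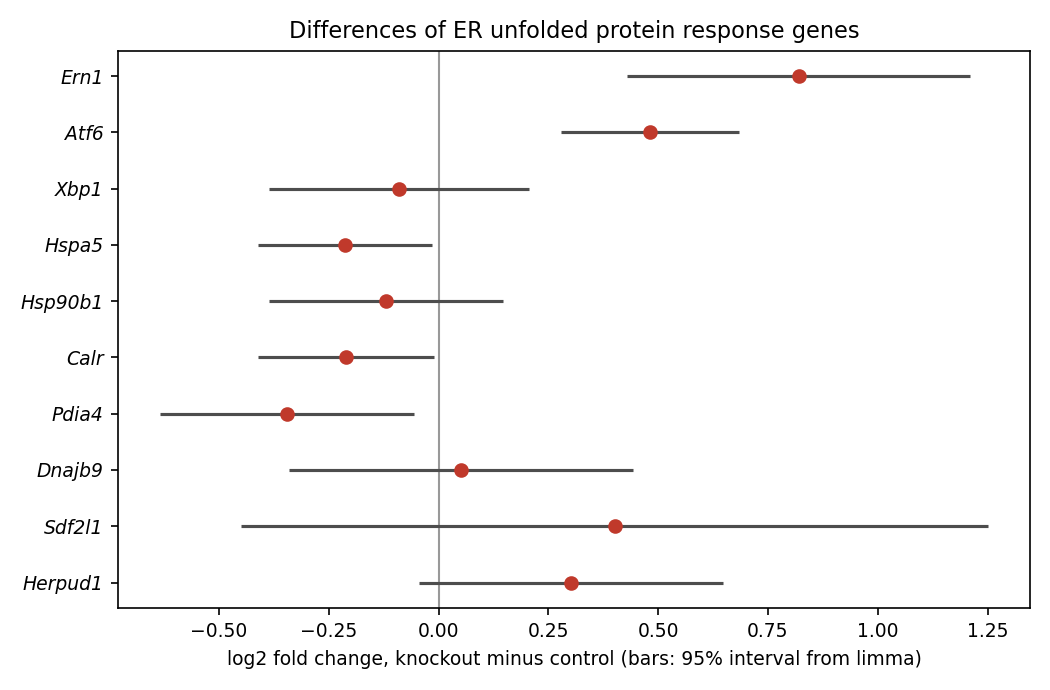
Log2 fold changes (x axis, knockout minus control, on the log2(normalized count + 1) scale) of the 10 ER unfolded protein response genes with their 95% intervals from limma as bars. The intervals of Ern1 and Atf6 lie above 0, those of Hspa5, Calr and Pdia4 lie below 0, and the other 5 include 0; none of the 10 passed the adjustment over all genes.

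Of 24 ER chaperones and folding enzymes tested, limma, edgeR and DESeq2 each called 0. The 3 at an unadjusted p under 0.05 in limma (12.5% of the list, against 6.11% of all genes) were Hspa5, Calr and Pdia4. All were lower in knockout hearts (3.02% of all genes). Without the 6 genes already described, 18 remained, of which 6 had a positive difference and 12 a negative one, with a median of -0.055 and 0 at an unadjusted p under 0.05. The disulfide isomerase gene Pdia3 had 640 and 729 normalized counts in knockout hearts and 841 and 807 in control hearts (log2 difference -0.27, limma adjusted p = 0.806). The BiP co-chaperone gene Dnajc3 had 584 and 522 in knockout hearts against 615 and 705 in control hearts (log2 difference -0.25, adjusted p = 0.815), and the reductase gene Dnajc10 had 350 and 357 against 397 and 415 (log2 difference -0.20, adjusted p = 0.845). In these 3 genes the groups did not overlap, and none passed the test. Over the whole list the groups did not overlap in 11 of 24 genes, 3 higher and 8 lower in knockout hearts, against 35.6% of all genes (18.1% higher and 17.5% lower). Secretory cells such as fibroblasts also express these chaperones, and the 7 fibroblast markers summed to 11609 to 14175 normalized counts in knockout hearts and 14896 to 15873 in control hearts. All 7 had negative log2 differences (median -0.28), and none was at 0 or passed the test. The 4 smooth muscle markers also had negative differences (median -0.30, summed 2583 to 3408 normalized counts in knockout hearts and 2909 to 4370 in control hearts), as did 4 of the 6 macrophage markers (median -0.24, summed 1927 to 2009 in knockout hearts and 1824 to 2689 in control hearts). Of the 6 endothelial markers, by contrast, 5 had positive differences (median 0.055). They summed to 10623 to 11738 normalized counts in knockout hearts and 10043 to 11027 in control hearts. The part of these cell types in the lower chaperone values was not tested. The 6 markers of B and plasma cells summed to 35.4 to 55.1 normalized counts in knockout hearts and 22.9 to 37.1 in control hearts, and Jchain, which marks plasma cells, was at 0 in 1 heart of each group.

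Genes with an ERSE match that are not among the 10 were examined as well. Of these, 13 were tested under the symbol of their promoter. Among the 13, 2 had a positive log2 difference (Pan2 and Spats2l, named after their values were seen), the others a negative one, the median was -0.157, and limma called 0. Ero1b was tested under the symbol Ero1lb and is not among the 13 (log2 difference -0.23, limma adjusted p = 0.926). The element was common among the chaperones, since 8 of the 21 with a promoter held it (Calr, Canx, Creld2, Dnajc3, Ero1b, Hsp90b1, Hspa5 and Pdia6). The 8 tested genes with an ERSE-II match beside Herpud1 had a median of 0.0203, the 106 with a UPRE match a median of -0.00044, and the 281 with a CARE match a median of -0.0018. Of the last group limma called 2 of 281 as higher (0.0757% of all genes), Trib3 and Gars, the gene for glycyl-tRNA synthetase, which was named after its values were seen.

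ER-associated degradation returns misfolded proteins to the cytosol for the proteasome. Of 18 genes of this pathway tested (Derl3 was too low), limma, edgeR and DESeq2 called 0, and 11 had positive log2 differences with a median of 0.015. Ube2j1, a ubiquitin-conjugating enzyme of the ER membrane, was the 1 gene at an unadjusted p under 0.05 (5.56% of the list, near the 6.11% of all genes). It had 369 and 375 normalized counts in knockout hearts and 292 and 292 in control hearts (log2 difference 0.35, limma adjusted p = 0.773). Selenos, a selenoprotein of the retrotranslocation complex, had 109 and 105 in knockout hearts against 82.1 and 86.2 in control hearts (log2 difference 0.34, adjusted p = 0.835). With Herpud1, these were genes whose 2 knockout values both lay above the control values, as in 6 of the 18 genes, beside Sel1l, named after its values were seen, with both below (18.1% higher and 17.5% lower among all genes).

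Among 23 genes for translocation into the ER and export from it, limma, edgeR and DESeq2 called 0, 9 differences were positive, and the median was -0.032. At an unadjusted p under 0.05 stood 2 genes, 8.70% of the list against 6.11% of all genes. Both were lower in knockout hearts (3.02% of all genes): Spcs2, a subunit of the signal peptidase, and Srpr, the receptor of the signal recognition particle. Spcs2 had 182 and 182 normalized counts in knockout hearts and 239 and 237 in control hearts (log2 difference -0.39, limma adjusted p = 0.788). Srpr had 582 and 579 against 664 and 741 (log2 difference -0.27, adjusted p = 0.806). Serp1, which protects nascent membrane proteins, had 269 and 265 in knockout hearts against 324 and 309 in control hearts (log2 difference -0.25, adjusted p = 0.815). The groups did not overlap in these 3 genes, which are among 10 of the 23 without overlap, 4 higher and 6 lower in knockout hearts, against 35.6% of all genes (18.1% higher and 17.5% lower).

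IRE1 also cuts other mRNAs at the ER in a process called regulated IRE1-dependent decay. As for Xbp1, gene-level values of its known targets do not by themselves report on IRE1 activity. The list examined held 6 such targets. limma, edgeR and DESeq2 called 0 of them, 0 were at an unadjusted p under 0.05, and the groups overlapped in all 6. Their median log2 difference was -0.059, with 1 positive. Col6a1, a collagen chain, showed -0.24 (limma adjusted p = 0.862), the scavenger receptor gene Scara3 -0.34 (adjusted p = 0.945), and Pdgfrb, the receptor gene of platelet-derived growth factor, 0.05 (adjusted p = 0.959). Scara3 rested on 14 to 42 reads per library, and its log2 difference turned to 0.20 without control 1. Fibroblasts express Col6a1, Scara3 and Sparc as well, and the 7 fibroblast markers had negative differences. Sparc, named after its values were seen, showed -0.048 (limma adjusted p = 0.973). The part of the fibroblast signal in these values was not tested.

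The integrated stress response, through which ATF4 raises amino acid synthesis and transport, was read in the same libraries. Its genes, like those of the other lists, were chosen with earlier results of these data known. The counts therefore describe the list and are not a test of it. Of its 24 genes limma called 0 lower and 5 higher, against the 11 of 14522 genes (0.0757%) that it called higher in all. edgeR called 6 higher (0.0895% of all genes) and DESeq2 10 higher (0.296% of all genes). The log2 differences were positive for 22 genes (all but Ddit4 and Vldlr, named after their values were seen), with a median of 1.31. At an unadjusted p under 0.05 in limma, 17 were higher, against 3.08% of all genes. Mthfd2, an enzyme of mitochondrial one-carbon metabolism, rose to 413 and 430 normalized counts in knockout hearts, against 25.4 and 22.9 in control hearts (log2 difference 4.07, limma adjusted p = 0.0015). Phgdh, which starts the synthesis of serine from a glycolytic intermediate, rose to 208 and 185 against 13.7 and 13.5 (log2 difference 3.76, adjusted p = 0.0075). The amino acid transporter gene Slc7a5 rose by a log2 difference of 2.41 and the factor gene Atf5 by 1.97 (adjusted p = 0.0255 for both).

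Trib3, a pseudokinase gene with a CARE match, rose to 152 and 202 normalized counts in knockout hearts, against 16.6 and 25.6 in control hearts (log2 difference 3.03, limma adjusted p = 0.0401). Without either knockout heart limma called 1 gene of this list, without control 2 it called 3, and without control 1 it called 7. The factors on which PERK and the other kinases converge were named after their values were seen. Atf4 had 1007 and 1192 normalized counts in knockout hearts and 513 and 455 in control hearts (log2 difference 1.18, adjusted p = 0.060 in limma, 0.056 in edgeR and 1.3e-09 in DESeq2). Ddit3 (the protein-coding entry of this symbol), which encodes CHOP, had 119 and 129 against 86.0 and 60.6 (log2 difference 0.77, limma adjusted p = 0.704). Neither gene passed the test in limma, and Herpud1 was the only one of the 9 ER genes with a promoter to hold an exact match to the ATF4 element.

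The mitochondrial chaperones and proteases, which carry out protein quality control in the organelle that lacks mtSSB, were set beside the ER chaperones. Of 12 tested, limma and edgeR called 0, 3 were higher at an unadjusted p under 0.05 (Lonp1, Hspa9 and Hspe1, against 3.08% of all genes), and DESeq2 called 2 as higher, Lonp1 and Hspa9 (0.296% of all genes). The log2 differences were positive for 10 of the 12, all but Htra2 and Spg7, which were named after their values were seen (median 0.18), and both knockout hearts lay above both controls in 8 of them, against 18.1% of all genes. Lonp1, the protease of the mitochondrial matrix, had 1843 and 1594 normalized counts in knockout hearts and 1057 and 1106 in control hearts (log2 difference 0.66, SE 0.11, adjusted p = 0.259 in limma and 3.8e-04 in DESeq2). Hspa9, the mitochondrial Hsp70, had 8177 and 8047 against 5728 and 5975 (log2 difference 0.47, adjusted p = 0.261 in limma and 3.4e-04 in DESeq2). Hspe1, the small chaperonin subunit, had 688 and 639 in knockout hearts against 555 and 519 in control hearts (log2 difference 0.30, limma adjusted p = 0.796). Hspe1 and Hspa8 have near-identical copies elsewhere in the genome, and their values are uncertain where reads were split between the copies.

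Of 9 cytosolic heat shock genes limma, edgeR and DESeq2 called 0. Hsp90aa1, a cytosolic Hsp90, was the 1 gene at an unadjusted p under 0.05 (11.1% of the list, against 6.11% of all genes). It had 1392 and 1652 normalized counts in knockout hearts and 1158 and 1254 in control hearts (log2 difference 0.33, limma adjusted p = 0.788). Bag3, a co-chaperone gene of muscle, had a log2 difference of -0.14 (adjusted p = 0.862), and Hspb1, a small heat shock protein gene, one of 0.12 (adjusted p = 0.917).

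The Hsp70 and Hsp90 families have at least 1 member in each compartment, so the same kind of chaperone can be read in the ER, the mitochondrion and the cytosol. Among the Hsp70 genes, the log2 difference was -0.21 for Hspa5 in the ER and 0.47 for Hspa9 in the mitochondrion. It was 0.061 for Hspa8 in the cytosol, which had 12353 and 11918 normalized counts in knockout hearts and 11567 and 11699 in control hearts (limma adjusted p = 0.936). Among the Hsp90 genes it was -0.12 for Hsp90b1 in the ER, 0.14 for Trap1 in the mitochondrion (adjusted p = 0.909) and 0.057 for Hsp90ab1 in the cytosol (adjusted p = 0.952). Other cytosolic members had higher differences than these 2 cytosolic genes. They were 0.28 for Hspa1a (limma adjusted p = 0.966), 0.23 for Hspa1b (0.968) and 0.33 for Hsp90aa1 (0.788), the last above that of Trap1. The cytosolic reading thus depends on the gene chosen. Hspa8, Hspa1a, Hspa1b, Trap1 and Hsp90ab1 were named after their values were seen.

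**Figure D4:**
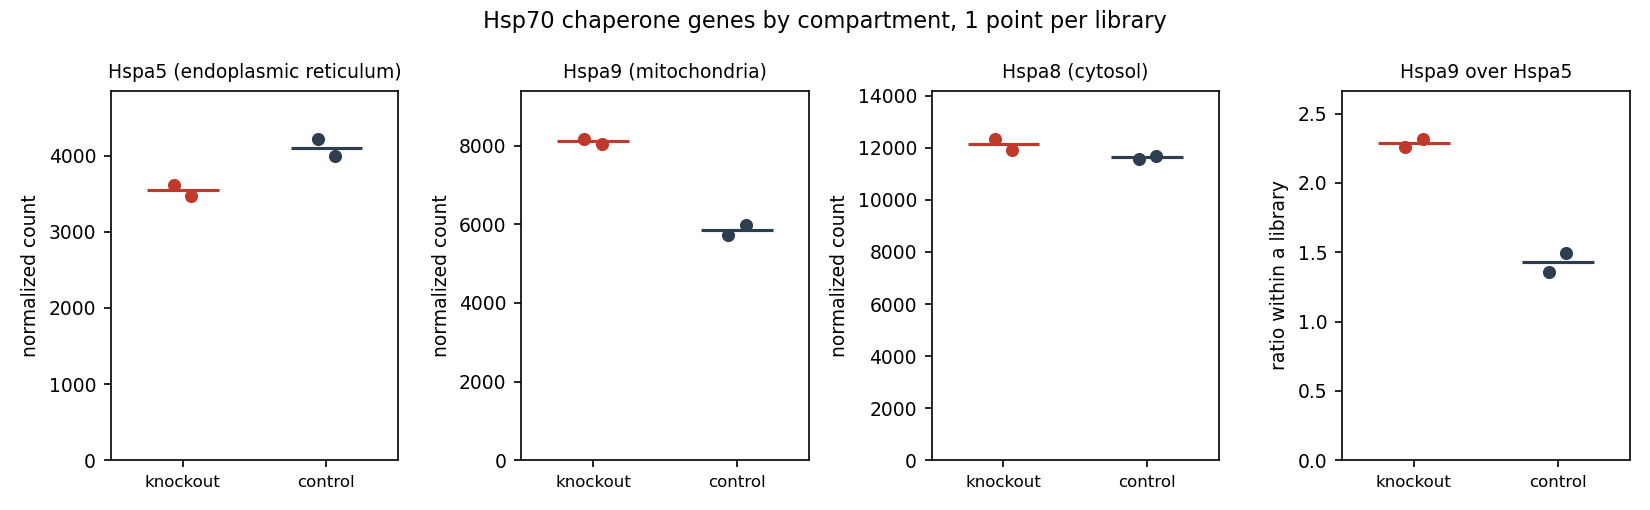
Normalized counts (y axes, starting at 0) of the Hsp70 genes Hspa5 of the ER, Hspa9 of the mitochondrion and Hspa8 of the cytosol, and the ratio of Hspa9 to Hspa5 within each library (right panel), with knockout hearts in red left of control hearts in dark blue, 1 point per library and lines for the means. The ratio is 2.26 and 2.32 in knockout hearts and 1.36 and 1.50 in control hearts.

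Ratios within a library do not depend on the size factor. These 4 pairs were chosen after the values were seen, and an exact permutation test of 2 against 2 hearts cannot give a p below 0.333, which each of them reached. The Hspa9 to Hspa5 ratio was 2.26 and 2.32 in knockout hearts and 1.36 and 1.50 in control hearts, or 1.60-fold higher. Per 1000 normalized counts of Hspa5 there were 668 and 726 of Atf6 in knockout hearts, against 413 and 449 in control hearts, so that the sensor mRNA was 1.62-fold higher in knockout hearts relative to the chaperone mRNA that active ATF6 induces. Per 1000 of Hspa5 there were likewise 333 and 291 of Herpud1 in knockout hearts and 192 and 248 in control hearts, or 1.42-fold more. The ratio of Ern1 to its substrate mRNA Xbp1 was 0.804 and 0.769 in knockout hearts and 0.453 and 0.385 in control hearts (1.88-fold). In all 4 ratios both knockout hearts lay above both control hearts. For the ratios to Hspa5 this outcome was fixed beforehand. Hspa9, Atf6 and Herpud1 were each higher, and Hspa5 lower, in both knockout hearts than in both control hearts.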

How the data were processed

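The authors isolated total RNA from whole hearts, prepared TruSeq libraries, used STAR 2.7.3a for alignment to GRCm38.p6, quantified them with Salmon 1.1.0 on GENCODE M24, and divided each library by its DESeq2 1.26.0 size factor (tools and versions also in the submitters' processing notes). The deposited signal values per gene are therefore normalized counts and not raw counts. Of these values, 100% were whole multiples of the value of 1 read in their library (tolerance 0.001 reads), so reads could be recovered, and on them edgeR 4.0.16 called 19 genes and DESeq2 1.42.0 called 62. A second deposited table holds the authors' own comparison (mean, log2 fold changes, standard errors, p-values) and was not used.

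Genes with at least 10 normalized counts in at least 2 of 4 libraries (14522) entered limma 3.58.1 (R 4.3.3) as log2(normalized count + 1), with a mean-variance trend, two-sided, with Benjamini-Hochberg adjustment at 0.05; the 2 knockout libraries were compared with the 2 control libraries. Fold changes on this scale understate those of low genes. The authors ran DESeq2 on gene-level Salmon estimates of all mice; DESeq2 on the recovered reads of 4 libraries, an alternative here, is not that procedure. Positions and exon lengths came from GENCODE vM21, promoters from RefSeq (GRCm38.p6). The pipeline was tested on simulated data with known changes. Figures were drawn with matplotlib 3.10.9.

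The members and gene lists were chosen with earlier results of these data known. Named genes are the 10 members, Ssbp1, and from each of the 8 other pathway lists the 3 tested non-members with the smallest unadjusted p plus any called gene. 1 gene that this rule names is not reported here. Further genes are marked in the text as named after their values were seen. No set test was run. The 15 alternatives covered the pseudocount, filter, scaling, a replicate block, spread model, test and each library left out.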

Additional observations from a re-analysis of the deposited data

Results flagged for a closer look

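The titles of 2 mice, 585H and 586H, name the opposite genotype to their genotype fields, and the mice enter neither group of any test. Each was sequenced in several runs that the authors combined. Some of their values lay above both control hearts. Mouse 585H had 2670 normalized counts of Atf6, 412 of Ern1, 1490 of Herpud1, 317 of Dnajb9 and 24.5 of Sdf2l1. Mouse 586H had 4613 normalized counts of Hspa5, 1845 of Atf6, 1085 of Herpud1 and 27.1 of Sdf2l1. The highest control values were 1790 for Atf6, 218 for Ern1, 989 for Herpud1, 284 for Dnajb9, 23.5 for Sdf2l1 and 4224 for Hspa5.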

How the results depend on the processing

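Under 15 alternatives, 146 of 149 values of the 10 ER genes kept their direction and their side of the threshold. Atf6 passed with DESeq2 (log2 difference 0.48, adjusted p = 0.0071), which made 1 member called in place of 0 and 1 sensor in place of 0; DESeq2 also called 62 genes in place of 17, 10 genes of the integrated stress response in place of 5, and 2 mitochondrial chaperones and proteases in place of 0. limma without a trend called 6 genes, 3 of them in the integrated stress response. Leaving out 1 heart gave 6 to 33 genes (6 without either knockout heart, 33 without control 1, 10 without control 2) and 1 to 7 in the integrated stress response. The median log2 difference of the 10 genes ranged between -0.10 (without control 1) and 0.10 (without control 2). With 1 heart left out, log2 differences turned for Xbp1 (-0.19 to 0.0099, the highest without knockout 2), Dnajb9 (-0.12 to 0.22, the lowest without control 1), Scara3 (-0.88 to 0.20, the highest without control 1) and Hspb1 (-0.015 to 0.26, the lowest without knockout 1). The cause of these changes was not tested. Of 403 values of the other named genes, 383 were unchanged in call and direction, 2 gained the call (Lonp1 and Hspa9 with DESeq2), 16 lost it (among Phgdh, Atf5, Slc7a5 and Trib3) and 2 turned. With at least 50 normalized counts required, Sdf2l1 was not tested. No scaling moved the median of all genes by over 0.1 (it was 0.0164 with equal nuclear totals and 0.0024 with the deposited size factors).

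The groups share replicate numbers. Deviations of same-numbered libraries had a correlation of 0.31 over 14522 genes. With 2 pairs this cannot decide whether the numbers pair the hearts, and the main fit assumed no pairing. With the replicate block limma called 30 genes in place of 17. Of these, 9 were in the integrated stress response, in place of 5, and 0 were among the 10 ER genes. With 2 hearts per group, and 116 reads of Sdf2l1 in all 4 libraries, depth and sample number limit what could be detected.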

Other observations

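The remaining values of the 2 mice with contradictory labels lay below both control hearts or between them. Mouse 585H was below both for Hspa5, Calr, Pdia4 and Xbp1, and between them for Hsp90b1. Mouse 586H was below both for Pdia4 and Xbp1, and between them for Hsp90b1, Calr, Dnajb9 and Ern1. The lowest control values were 3992 for Hspa5, 2293 for Calr, 382 for Pdia4 and 480 for Xbp1. Mouse 585H had 3762 normalized counts of Hspa5, 2386 of Hsp90b1, 2078 of Calr, 261 of Pdia4 and 456 of Xbp1. Mouse 586H had 2664 normalized counts of Hsp90b1, 2299 of Calr, 328 of Pdia4, 430 of Xbp1, 240 of Dnajb9 and 194 of Ern1. Mitochondrial transcripts took 56.2% of the reads of mouse 585H and 63.6% of those of mouse 586H.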
